A study of Mus musculus with 24 samples.

Results

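The wild type levels of genes listed in this mRNA-seq data set were followed from the intestinal stem cell (ISC) through the transit amplifying cell (TA) to the adult enterocyte (AE) of the mouse small intestine. The members are genes, taken as the union of the 4 deposited tables with duplicates dropped, and kept where the log2 value was at least 0 in WT ISC, WT TA or WT AE. The tables held 98 listings of 82 different genes, of which 76 passed this limit and 6 did not. Of the 76 members, 72 are protein coding and 4 are long intergenic non-coding RNAs. The member just inside the limit was Cd244, with a highest value of 0.06, and the gene just outside it was Mal, with a highest value of -1.31. Every gene is in the tables because the authors called it changed by deletion of Smarcad1 in at least 1 cell type, so the 76 genes are no sample of the transcriptome, and shares given below describe these genes alone.

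The small intestinal epithelium is renewed from stem cells at the base of the crypts, which are kept in that state by Wnt signals and marked by the receptor Lgr5. Their daughters divide as TA cells higher in the crypt, stop dividing as they reach the villus, and become mostly absorptive enterocytes with a brush border of microvilli that digests and takes up nutrients. Paneth cells, which secrete antimicrobial proteins, stay at the crypt base between the stem cells, and mucus-producing goblet cells are found in crypt and villus.

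The 3 groups held 3 libraries each, from mice labelled wild type, in which Smarcad1 was intact, and the strain label of all 3 groups, AE included, was C57BL/6 Lgr5-GFP. ISC were sorted as GFP-high and TA as GFP-medium cells, without antibody staining, from crypts dissociated with enzymes. AE were Epcam-high cells, negative for CD31 and CD45, taken from villi that were dissociated by pipetting alone. The KO groups, used only as a second reading, were the same 3 populations, also with 3 libraries each, from animals in which Vil-Cre, driven by the Villin promoter in intestinal epithelial cells, had deleted Smarcad1, a chromatin remodeller of the SNF2 family. Because dissociation and sorting differed between crypt and villus, their effects and those of the cell stage cannot be told apart in AE against ISC or TA. ISC and TA were gated from the same kind of crypt suspension by the level of 1 reporter, and labels do not say whether they came from the same animals. The number of cells per sort ranged from 1000 to 80000 in ISC and from 1000 to 135000 in TA, against 100000 in each AE sort.

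All levels are the authors' group means on a log2 scale of reads normalised to total reads, with 1 value per gene and group. No value per library was at hand, so no difference below has an error, a test or a replicate check, and library depth is unknown. A difference of at least 1 on the log2 scale, which is 2-fold, is called higher or lower, and smaller differences are called within the limit. In bulk samples like these, fewer cells that contain a transcript and less of it per cell cannot be told apart. Since the values are shares of total reads, a change in the rest of the transcriptome would also move them, and the listed genes alone do not allow this to be checked.

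The sort labels could be checked against few marker genes, since most markers are not among the listed genes. Of 10 stem cell markers only Ascl2 was present, and its log2 level ran from 6.05 in ISC through 4.24 in TA to -0.18 in AE. Of 16 enterocyte markers 2 were present, Mep1a and Clca4b, and their summed level was 8.68 in ISC, 8.04 in TA and 10.4 in AE. None of 9 proliferation markers, 4 enteroendocrine markers, 2 tuft cell markers or 5 endothelial and stromal markers was present, so the proliferative state of TA could not be checked. Ascl2 was highest in ISC and the enterocyte pair in AE, in the order of the labels. The enterocyte pair did not separate TA from ISC in the direction of differentiation. The 2 Paneth markers present out of 7 summed to 10.4 in ISC, 9.95 in TA and 7.03 in AE, above Ascl2 in all 3 groups. The 1 goblet marker present out of 6, Spink4, was at 7.40, 9.14 and 7.44. The purity of the sorts is thus not settled by these markers.

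Between stem cells and enterocytes, the ectonucleotidase Nt5e, the amino acid transporter Slc6a19, the interferon-induced Ifit1 and all listed brush border genes were higher in AE, whereas the stem cell factor Ascl2, the matrix enzyme Pxdn and the Paneth cell genes Lyz1 and Itln1 were lower. Of the 76 genes, 49 (64.5%) were higher in WT AE than in WT ISC and 13 (17.1%) were lower, with 14 within the limit. Part of this balance was set by the filter. Ifit1, Rsad2, Pdzd7, Tat, Bglap3, Meg3 and Cd244 passed it through AE alone, and all but Cd244 were counted as higher. Plcd3 passed it through ISC alone and was within the limit. Without the filter, 50 of 82 genes were higher and 14 lower. Over the 76 genes the median difference AE minus ISC was 2.01, with quartiles of -0.56 and 3.54. The changes were large: 27 genes were at least 8-fold higher and 6 at least 8-fold lower in AE. The 27 include Meg3, whose ISC value was the lowest of that column, and Pdzd7. With a pseudocount of 1 these differed by 1.80 and 1.91, which is less than 8-fold. The 6 include AY036118, whose reads are of uncertain origin. With a limit of 2 in place of 1, 38 genes were higher, 11 lower and 27 within. At the limit itself, Slc25a20 was just inside with a difference of 1.02 and AC151971.2 just outside with 0.98.

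**Figure D1:**
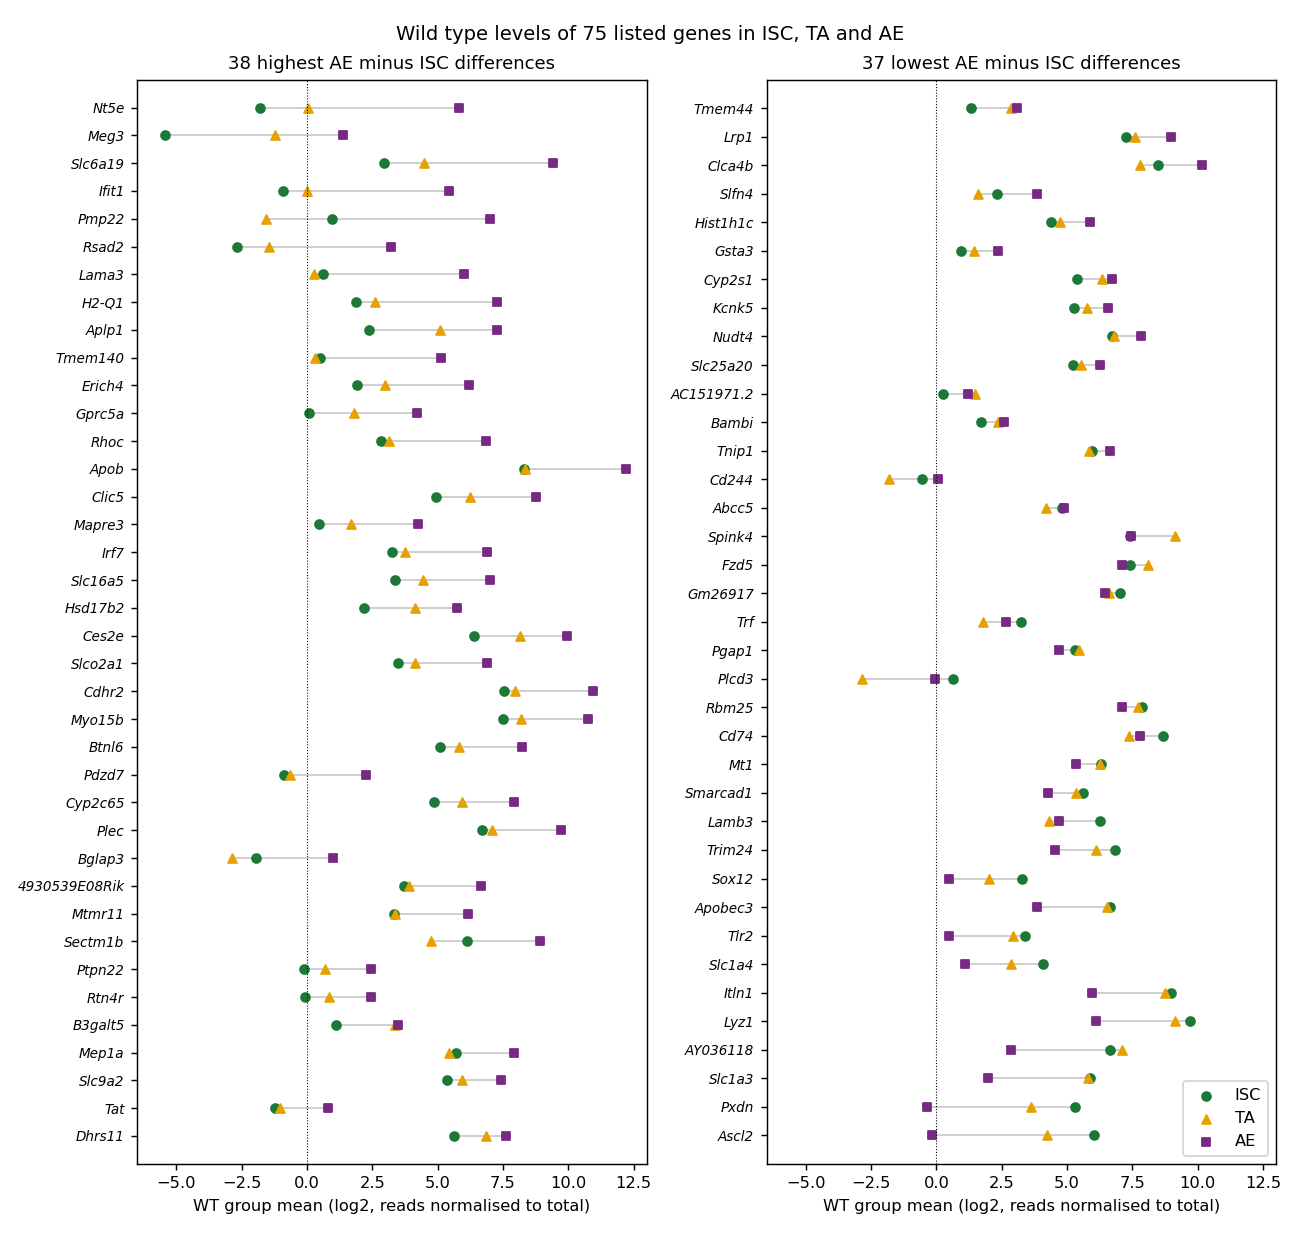
Authors' group mean of 75 of the 76 genes in WT ISC (circles), WT TA (triangles) and WT AE (squares), as log2 of reads normalised to total reads. Genes are ordered by AE minus ISC, from Nt5e, higher by 7.61, to Ascl2, with a difference of -6.23; grey lines join the lowest and highest of the 3 values, and TA mostly lies nearer to ISC than to AE.

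The larger part of the change lay after the TA stage. In the first step, TA against ISC, 18 genes (23.7%) were higher and 11 (14.5%) lower, with a median difference of 0.34. In the second step, AE against TA, 44 (57.9%) were higher and 13 (17.1%) lower, with a median of 1.67. The median absolute difference was 0.72 in the first step and 2.34 in the second. Among the 49 genes higher in AE than ISC, 42 had the larger change in the second step, and a median of 78.3% of the log2 difference fell there. Of these 49, 16 were also higher in TA than ISC, 42 were higher in AE than TA, 13 passed the limit in both steps and 4 in neither. Among the 13 genes lower in AE, 12 had the larger change in the second step, with a median share of 81.0%. The second step is also the one that crosses from enzyme-dissociated crypts to pipetted villi.

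The TA level lay between the other 2 in 56 genes, in increasing order by stage in 42 and in decreasing order in 14. TA was the lowest of the 3 in 15 genes and the highest in 5. It lay outside the range of ISC and AE by at least 1 in 5 genes only, above it in Spink4 and below it in Plcd3, Pmp22, Sectm1b and Cd244.

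**Figure D2:**
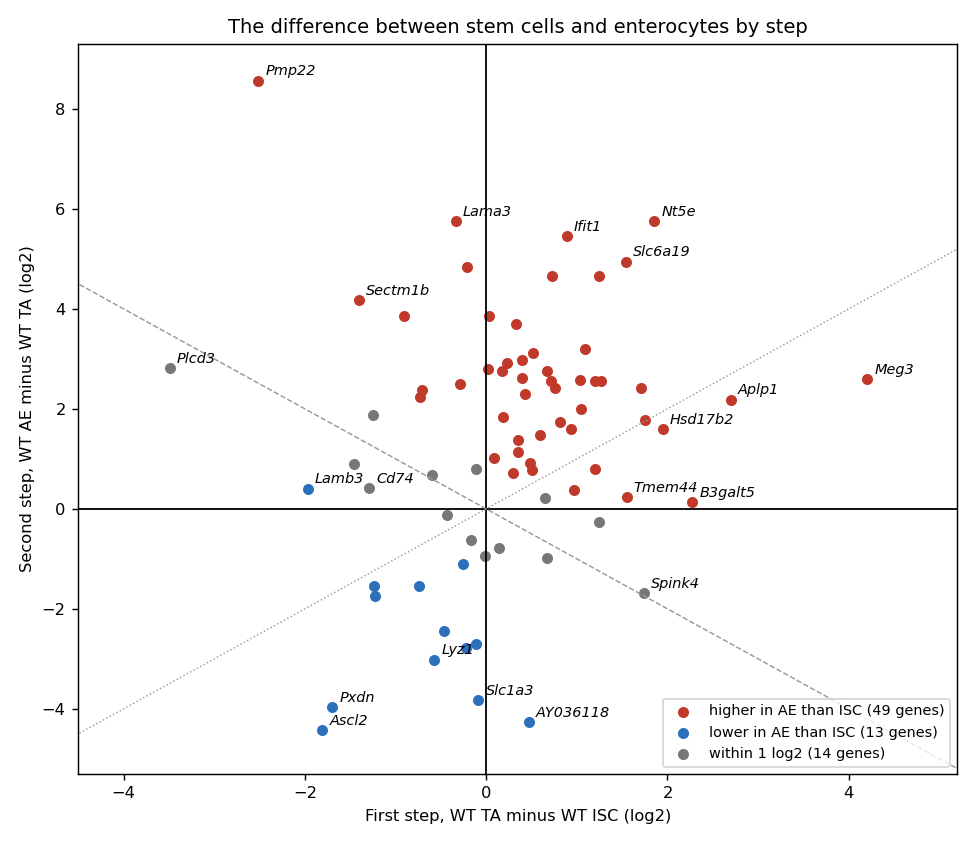
First step (WT TA minus WT ISC, x axis) against second step (WT AE minus WT TA, y axis), both as log2 differences, for the 76 genes; the axes share the TA value. The dotted line marks equal steps and the dashed line a total of 0. Red, blue and grey points are the 49 higher, 13 lower and 14 within the limit in AE against ISC. Most red points lie left of the dotted line with second steps of up to 8.56, while Meg3, Aplp1, Hsd17b2, Tmem44 and B3galt5 lie to its right.

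Of the Wnt and stem cell list, 3 of 18 genes were members, and Ascl2 alone passed the limit, as lower in AE. Of all 76 members, 17.1% were lower and 64.5% higher. Ascl2, a basic helix-loop-helix transcription factor that controls the stem cell state, had WT values of 6.05 in ISC, 4.24 in TA and -0.18 in AE. This was the largest decrease of all, a difference of -6.23 on the log2 scale or 75.2-fold, of which 71.0% lay in the second step. With a pseudocount of 1, added to each value before the log, the difference was -5.16. Ascl2 is counted over chr7:142966829-142969264 (GRCm38, minus strand). Fzd5, a Wnt receptor, had values of 7.43 (ISC), 8.10 (TA) and 7.11 (AE), a difference of -0.32 between the ends, with its highest value in TA. Part of its exons is shared with the opposite-strand gene Gm38058, and whether the reads were counted by strand is not given in the sources used here. Bambi, a decoy receptor that dampens BMP and TGF-beta signals, had values of 1.72, 2.38 and 2.59, a difference of 0.87 that stayed within the limit. The median of these 3 genes was -0.32, against 2.01 over all 76.

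The genes with the next largest decreases had other roles. Pxdn, peroxidasin, which cross-links collagen IV in basement membranes, had values of 5.31 in ISC, 3.61 in TA and -0.36 in AE. It was 51.0-fold lower in AE than in ISC and followed the same 2 steps as Ascl2, with 70.0% of its log2 change in the second. Its difference was -5.67, and -4.52 with a pseudocount of 1. Pxdn was counted over chr12:29937608-30017658 on the plus strand. Sox12, a SoxC transcription factor, was at 3.27, 2.03 and 0.48, with steps of nearly equal size. Slc1a3 and Slc1a4, transporters of acidic and of neutral amino acids, differed by -3.91 and -2.98 between AE and ISC. Slc1a3 was at a like level in ISC (5.88) and TA (5.79) and at 1.96 in AE, whereas Slc1a4 was at 4.09, 2.86 and 1.11. The non-coding AY036118, with values of 6.64, 7.11 and 2.85, lies in a ribosomal RNA repeat and shares all of its 50-base stretches with another annotated gene, so its reads are of uncertain origin.

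The promoters of Ascl2 and Pxdn are shown because these 2 genes had the largest decreases. Each window spans 250 bases before to 50 after the RefSeq start in GRCm38.p6, chr7:142969215-142969514 on the minus strand for Ascl2 and chr12:29937786-29938085 on the plus strand for Pxdn, with searched motifs in capitals. The Ascl2 window held 1 GC box (GGGCGG) and that of Pxdn 3 GC boxes and 2 E-boxes (CAGCTG).
Ascl2: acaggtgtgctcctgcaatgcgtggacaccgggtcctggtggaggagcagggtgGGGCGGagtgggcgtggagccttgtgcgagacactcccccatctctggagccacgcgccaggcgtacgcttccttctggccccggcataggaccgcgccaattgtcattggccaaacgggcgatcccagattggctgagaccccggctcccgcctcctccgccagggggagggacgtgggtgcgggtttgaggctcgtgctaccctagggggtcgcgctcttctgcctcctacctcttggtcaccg
Pxdn: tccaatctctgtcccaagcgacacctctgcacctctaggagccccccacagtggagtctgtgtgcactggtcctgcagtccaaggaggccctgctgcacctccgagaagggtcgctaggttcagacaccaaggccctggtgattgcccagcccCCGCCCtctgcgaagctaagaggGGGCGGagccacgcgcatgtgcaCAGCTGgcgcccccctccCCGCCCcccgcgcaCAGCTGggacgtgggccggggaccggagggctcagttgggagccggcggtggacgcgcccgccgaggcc

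Of the proliferation and chromatin list, 5 of 15 genes were members, with 2 higher and 2 lower in AE and a median of -0.79. All 76 members had 64.5% higher, 17.1% lower and a median of 2.01. Smarcad1 itself had WT values of 5.62 in ISC, 5.36 in TA and 4.27 in AE, a difference of -1.35, or 2.55-fold lower, with 81.0% of it in the second step. Trim24, a reader of histone marks and co-regulator of transcription, differed by -2.29 (6.84, 6.09 and 4.55). Hist1h1c, which encodes a linker histone, was higher by 1.49 (4.40, 4.75 and 5.89), and Nudt4, which removes phosphates from inositol pyrophosphates, by 1.11. The splicing factor Rbm25 stayed within the limit at -0.79. Genes of DNA replication and mitosis on this list are not members and were not analysed here.

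Of the Paneth and goblet cell list, 3 of 16 genes were members, with 2 lower and 1 within the limit. Of all 76 members, 17.1% were lower and 64.5% higher. Lyz1, the lysozyme of Paneth cells, had values of 9.69 in ISC, 9.12 in TA and 6.11 in AE, which is 12.0-fold lower in AE than in ISC. Itln1, intelectin, a lectin of Paneth and goblet cells, had values of 8.97, 8.75 and 5.96 and was 8.05-fold lower. Both genes were close in ISC and TA and lower in AE. Divided by exon length, Lyz1 and Itln1 held the highest levels of all 76 genes in WT ISC, 9.36 and 8.77 on the log2 scale per kilobase. The summed level of the 2 Paneth markers present out of 7 was 10.4 in ISC, 9.95 in TA and 7.03 in AE. The part of Paneth cell RNA in the GFP gates in these 2 results was not tested. About 16.1% of the 50-base stretches of Lyz1 also occur in its paralogue Lyz2. Spink4, a goblet cell gene, had values of 7.40 in ISC, 9.14 in TA and 7.44 in AE. It differed by 0.05 between the ends and was the only gene with a WT TA level at least 1 above both, by 1.69. In KO its values were 8.31, 9.12 and 8.16, with TA above both by 0.81. It was also the single goblet marker present out of 6, so goblet cell RNA in the TA gate and a change within TA cells cannot be told apart. Per kilobase of exon, Spink4 was at rank 3 of 76 in WT AE, at 8.51. The part of goblet cell RNA in AE was not tested.

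All 6 members of the brush border and digestive enzyme list, which holds 20 genes, were higher in AE, against 64.5% of all 76 members, with a median of 2.77 against 2.01. Cdhr2, a protocadherin that links the tips of microvilli, had values of 7.55 in ISC, 7.95 in TA and 10.93 in AE. It was 10.4-fold higher in AE. Per kilobase of exon, Cdhr2 had the highest level of the 76 genes in WT AE, at 8.88, up from rank 8 in ISC. Clic5, a protein of the microvillus base in hair cells and epithelia, stepped up from 4.95 through 6.22 to 8.77. Pdzd7, a scaffold protein of stereocilia, was below the filter in ISC and TA (-0.88 and -0.66) and at 2.27 in AE. It is among the 6 only through its AE value. Mep1a, the alpha subunit of the metalloprotease meprin, and Clca4b, of the calcium-activated chloride channel regulator family, were higher by 2.20 and 1.68 but had their lowest level in TA. Clca4b, at 8.48 in ISC, 7.78 in TA and 10.16 in AE, shares 24.8% of its 50-base stretches with other genes, mainly Clca4a. B3galt5, a galactosyltransferase that builds glycan chains, was the exception in timing in WT, with 1.09 in ISC, 3.36 in TA and 3.49 in AE. Only 5.34% of its WT change lay in the second step. In KO the second step was the larger one, at 2.00 against 0.71 in the first. B3galt5 was listed for TA, so its WT TA value took part in its selection. Myo15b, which is related to unconventional myosins, and Plec, which links intermediate filaments to junctions, were higher by 3.27 and 3.01. Both are in no list and were picked with their values known.

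The solute and ion transporters, of which 8 of 20 were members, were divided, with 4 higher, 2 lower and 2 within the limit. Their median of 0.55 was below that of all 76 members, 2.01, of which 64.5% were higher and 17.1% lower. Slc16a5, of the monocarboxylate transporter family, had values of 3.38, 4.42 and 7.00 and was 12.2-fold higher in AE. Slco2a1, the prostaglandin transporter, had 3.47, 4.14 and 6.90 and was 10.8-fold higher. The sodium-proton exchanger Slc9a2 was higher by 2.07, and the mitochondrial carnitine-acylcarnitine carrier Slc25a20 by 1.02. The 2 lower genes were the amino acid transporters Slc1a3 and Slc1a4 described above. The exporter Abcc5 was flat, at 4.79, 4.20 and 4.87, and Trf, transferrin, was at 3.25, 1.79 and 2.68, but 59.4% of the 50-base stretches of Trf also occur in the overlapping gene Gm20425.

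The 2 largest increases, leaving out Meg3, were outside these lists. Nt5e, the ecto-5'-nucleotidase CD73 that makes adenosine from AMP, had values of -1.81 in ISC, 0.05 in TA and 5.81 in AE, an increase of 7.61. Slc6a19, the neutral amino acid transporter of the brush border, had 2.94, 4.48 and 9.43, an increase of 6.49 or 89.7-fold. With a pseudocount of 1 the increase was 5.47 for Nt5e and 6.31 for Slc6a19, so their order was reversed. In the second step lay 75.6% of the change of Nt5e and 76.3% of that of Slc6a19, but the first step was also past the limit, at 1.85 and 1.54. Nt5e was counted over chr9:88327197-88372092 (plus strand) and Slc6a19 over chr13:73679745-73704865 (minus strand). Per kilobase, Slc6a19 went from rank 52 of 76 in ISC to rank 9 in AE, while Nt5e went from rank 75 to 45. The non-coding RNA Meg3 had values of -5.44, -1.23 and 1.36. Its ISC value was the lowest of that column and was held by no other gene, so no fold is given.

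The promoters of Nt5e and Slc6a19 are printed as those of the 2 genes with the largest increases. They span chr9:88327359-88327658 on the plus strand and chr13:73692587-73692886 on the minus strand. Each lies inside the counted span of its gene, that of Slc6a19 farther from the upstream edge. That of Nt5e held 4 GC boxes in 2 overlapping pairs (in capitals), and in that of Slc6a19 none of the 8 searched motifs was found.
Nt5e: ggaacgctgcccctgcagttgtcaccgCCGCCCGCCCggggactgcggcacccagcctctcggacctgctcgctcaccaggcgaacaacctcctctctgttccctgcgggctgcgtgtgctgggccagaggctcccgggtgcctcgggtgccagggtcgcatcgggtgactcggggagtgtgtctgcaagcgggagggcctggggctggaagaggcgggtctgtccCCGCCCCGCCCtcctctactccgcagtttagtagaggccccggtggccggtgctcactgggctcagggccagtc
Slc6a19: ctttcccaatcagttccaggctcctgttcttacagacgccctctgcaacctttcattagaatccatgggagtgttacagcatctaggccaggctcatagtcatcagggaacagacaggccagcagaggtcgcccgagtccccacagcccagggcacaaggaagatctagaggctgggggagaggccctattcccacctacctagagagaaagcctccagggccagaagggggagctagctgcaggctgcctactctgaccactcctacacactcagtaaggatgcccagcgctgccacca

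Lipid oxidation and detoxification enzymes were higher in AE in 7 of 8 members of a list of 20, against 64.5% of all members, but their median of 1.70 was below the 2.01 of all members. Ces2e, a carboxylesterase that hydrolyses esters of lipids and drugs, had values of 6.40, 8.16 and 9.94, in steps of 1.75 and 1.79. The cytochromes P450 Cyp2c65 and Cyp2s1 were higher by 3.04 and 1.34, the dehydrogenase Dhrs11 by 2.00 and the glutathione transferase Gsta3 by 1.40. Cyp2s1 and Dhrs11 had the larger part of the change in the first step, with 28.1% and 39.8% in the second. Mt1, a metallothionein that binds zinc and copper, was the member that did not pass, with 6.29, 6.27 and 5.33. Apob, the structural protein of chylomicrons, chosen after its values were seen, had 8.32 in ISC, 8.35 in TA and 12.20 in AE. It was 14.7-fold higher in AE with 99.3% of the change in the second step. Hsd17b2, which inactivates sex steroids and was also chosen after its values were seen, was already higher in TA, with 2.18, 4.13 and 5.73.

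Of the interferon and innate sensing list, 9 of 14 genes were members, with 6 higher, 2 lower and 1 within the limit and a median of 2.56. The count of higher genes was near the 64.5% of all members, so that single genes rather than the list are described. Ifit1, an interferon-induced protein that binds viral RNA, had values of -0.91 in ISC, -0.02 in TA and 5.44 in AE, which is 81.3-fold higher in AE than in ISC. Rsad2, viperin, an antiviral enzyme induced by interferon, had -2.69, -1.44 and 3.21. Both passed the filter through AE alone. With a pseudocount of 1, the difference of Ifit1 was 4.85 in place of 6.35 and that of Rsad2 3.15 in place of 5.90. Irf7, the transcription factor that drives interferon production, had 3.23, 3.76 and 6.87 and was 12.5-fold higher. The step from TA to AE was the larger one in these 3 genes, with 78.9% to 86.0% of the change. Tmem140 was higher by 4.62, but 37.0% of its exon sequence overlaps Cyren on the opposite strand. Slfn4, of the Schlafen family, was at 2.34, 1.61 and 3.85, and Ptpn22, a phosphatase that restrains lymphocyte receptor signals, at -0.13, 0.69 and 2.43. The 2 lower genes were Tlr2, a receptor for bacterial lipoproteins, at 3.40, 2.93 and 0.49, and Apobec3, a cytidine deaminase that restricts retroviruses, at 6.64, 6.53 and 3.84. Tnip1, an inhibitor of NF-kappaB signalling, stayed within the limit at 0.69. Innate genes were thus found in both directions, with Tlr2 and Apobec3 higher in the crypt groups and Ifit1, Rsad2 and Irf7 higher in the villus group.

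The promoters of Ifit1 and Rsad2 are shown because they held the interferon-stimulated response element (searched as GAAANNGAAA on both strands). These 2 windows were added after the values and motif matches were seen. They span chr19:34640639-34640938 on the plus strand and chr12:26456403-26456702 on the minus strand. Ifit1 held the element at positions -104 and -85 from the start, and Rsad2 at -120 (in capitals, as the reverse complement), beside a TATA box (TATAAA, also on the opposite strand) in Rsad2.
Ifit1: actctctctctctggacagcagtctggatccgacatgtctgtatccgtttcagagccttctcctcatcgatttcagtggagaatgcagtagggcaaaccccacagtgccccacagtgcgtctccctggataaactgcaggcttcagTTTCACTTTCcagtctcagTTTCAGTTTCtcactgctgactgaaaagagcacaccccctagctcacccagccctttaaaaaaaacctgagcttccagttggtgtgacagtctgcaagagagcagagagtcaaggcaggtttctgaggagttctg
Rsad2: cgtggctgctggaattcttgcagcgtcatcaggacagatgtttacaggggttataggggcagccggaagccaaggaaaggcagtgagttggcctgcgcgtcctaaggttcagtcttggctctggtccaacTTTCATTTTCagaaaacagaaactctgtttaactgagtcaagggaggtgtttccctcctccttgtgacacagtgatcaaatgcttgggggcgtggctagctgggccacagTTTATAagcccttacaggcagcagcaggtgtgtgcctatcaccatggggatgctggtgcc

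Promoter entries were found for 58 of the 76 members in the RefSeq table, which held 27025 promoters of 300 bases. The interferon-stimulated response element was in 3 of 38 promoters of genes higher in AE (7.89%), in Ifit1, Rsad2 and Tmem140, and in 1 of 13 of genes lower in AE (7.69%), Apobec3, against 3.49% of all promoters. The HNF4 half-site CAAAGTC was in 4 of 38 (10.5%), in Slfn4, Ptpn22, Cyp2c65 and Cdhr2, and in 1 of 13, against 4.36% of all. The TATA box was in 23.7% of the promoters of genes higher in AE, 15.4% of those lower and 14.2% of all. The GC box was in 36.8%, 53.8% and 35.9%, and the E-box in 7.89%, 23.1% and 16.1%. The CDX motif TTTATTG was in none of the 38 and in 4.84% of all. The TCF and LEF motif CTTTGA was in 15.8%, 0% and 16.2%, and the GATA motif AGATAA in 7.89%, 7.69% and 11.4%. With 38 and 13 promoters, each of these shares rests on 14 matches or fewer, and a match is no evidence of binding.

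Antigen presentation and lymphocyte interaction genes, 6 of 18, were higher in AE in 4 and within the limit in 2, a count near the 64.5% of all members, with a median of 2.66 against 2.01. H2-Q1, of the class I histocompatibility genes, had values of 1.86, 2.59 and 7.26 and was 42.0-fold higher in AE, although 15.0% of its 50-base stretches also occur in other genes, mainly H2-Q2. Btnl6, a butyrophilin-like protein that acts on intraepithelial lymphocytes, stepped up from 5.07 through 5.83 to 8.24. Sectm1b had its lowest level in TA, with 6.13, 4.73 and 8.90. The 2 genes within the limit were Cd74, the chaperone of class II molecules, at 8.67, 7.37 and 7.79, and Cd244, a receptor of natural killer and T cells, at -0.56, -1.82 and 0.06. Of 8 immune cell markers only Cd244 and Ptpn22 were present, and their summed level was 0.67 in ISC, 0.93 in TA and 2.69 in AE. The defining leukocyte marker Ptprc, which encodes the CD45 used to gate AE, was not analysed here. The part of immune cell RNA in the levels of Cd74, Cd244 and Ptpn22 was not tested.

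Basement membrane, adhesion and cytoskeleton genes had the highest median of the lists, 3.77, with 5 of 7 members of a list of 11 higher and 2 lower. The share that was higher was near the 64.5% of all members. The 2 chains of laminin-332 in the tables went opposite ways. Lama3, the alpha 3 chain, had values of 0.60 in ISC, 0.26 in TA and 6.02 in AE. It was 42.8-fold higher in AE. Lamb3, the beta 3 chain, had 6.27, 4.30 and 4.71 and was 2.96-fold lower. Lamb3 was also the only gene lower in AE whose larger change lay in the first step. Pmp22, a tetraspan protein of cell junctions and myelin, had 0.95, -1.56 and 7.00, the largest second step of all at 8.56, while the first step was -2.51. Its TA value was below the filter, and with a pseudocount of 1 the second step was 6.59 and the first -1.13. In KO its second step was 4.40, below the 5.55 of Nt5e. Rhoc, a small GTPase of the actin cytoskeleton, was higher by 4.03, Mapre3, which binds growing microtubule ends, by 3.77, and the endocytic receptor Lrp1 by 1.73. The adhesion, laminin and cytoskeleton members thus held both the second largest decrease, Pxdn, and some of the largest increases.

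**Figure D3:**
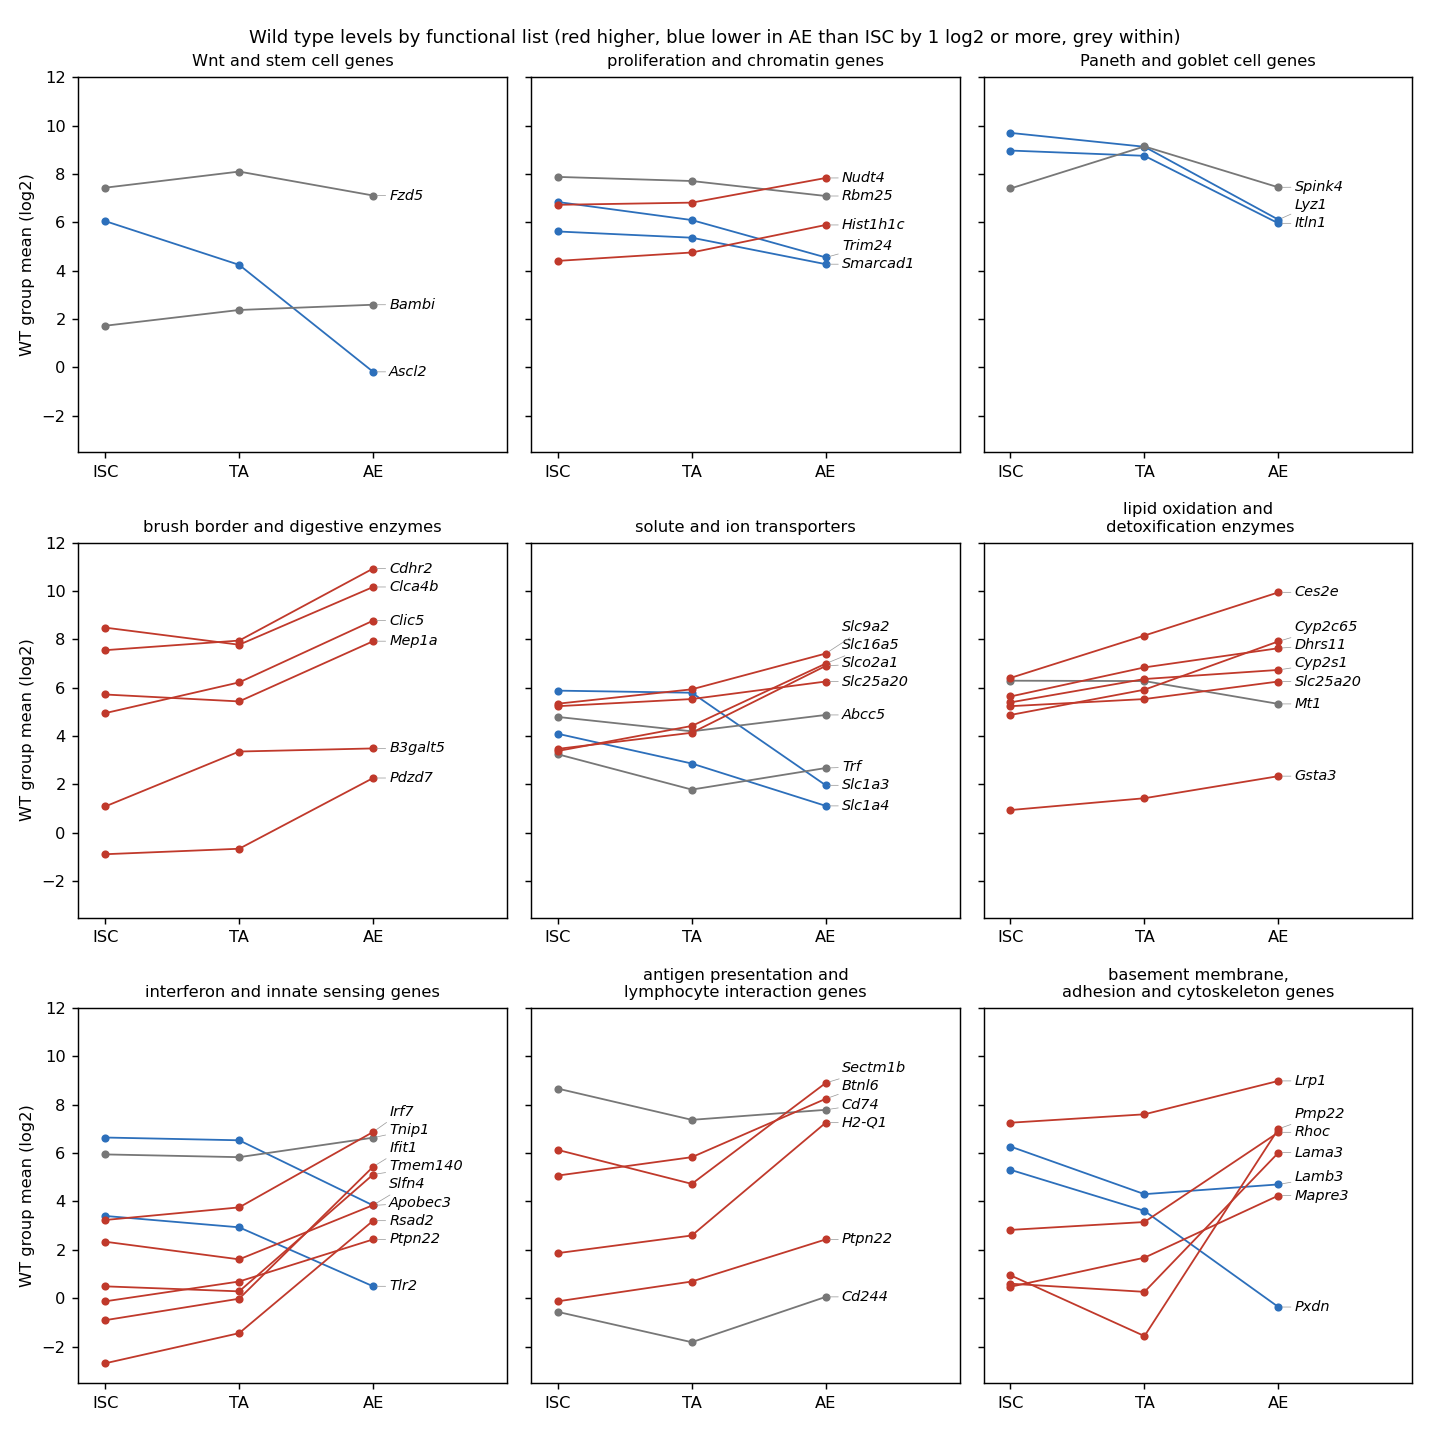
WT group means in ISC, TA and AE for the members of the 9 functional lists except 1 gene, as log2 of reads normalised to total reads; each line is 1 gene. Red genes were higher and blue genes lower in AE than ISC by at least 1, grey genes were within. All 6 brush border genes are red, the innate panel holds 6 red and 2 blue genes, and Spink4 peaks in TA at 9.14.

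Other genes among the largest increases were Aplp1, of the amyloid precursor family, at 2.39, 5.08 and 7.27, and Erich4, at 1.90, 2.99 and 6.20. In WT, Aplp1 was 29.5-fold higher in AE than in ISC and had the larger share of its change in the first step, 2.70 against 2.18. In KO the second step was the larger one, 1.83 against 0.93. The AE minus ISC difference of Aplp1 was 4.88 in WT and 2.77 in KO. Aplp1 was listed for TA and AE among others, so its WT values there took part in its selection. Of the 11 genes that the study names as repeatedly raised in KO, 7 were members, with 3 higher, 2 lower and 2 within the limit in WT. Their median was 0.87, against 2.01 over all 76 members, of which 64.5% were higher and 17.1% lower. That list was drawn up by the study on these samples. Bglap3, related to osteocalcin, had WT values of -1.96, -2.87 and 0.99, and 11.5% of its 50-base stretches also occur in other genes, mainly Bglap2.

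Of the 21 members in no list, 15 were higher, 2 lower and 4 within the limit, against 64.5% higher and 17.1% lower of all 76. Those not described above, chosen after their values were seen, were the orphan receptor Gprc5a, which differed by 4.12, 4930539E08Rik by 2.93, Mtmr11 by 2.81, the Nogo receptor Rtn4r by 2.53, the tyrosine aminotransferase Tat by 2.02, Tmem44 by 1.78 and the potassium channel Kcnk5 by 1.28. Mtmr11 shares 37.8% of its exon sequence with Gm17690 on the opposite strand. The non-coding Gm26917 stayed within the limit at -0.56.

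Plcd3, a phospholipase C, had the TA value farthest below both others, with 0.64 in ISC, -2.86 in TA and -0.04 in AE. All 3 of its levels were low on this scale. Smaller dips in TA, as the distance from the lower of ISC and AE, were those of Bglap3 with -0.91, Trf with -0.89, Slfn4 with -0.73, Clca4b with -0.71 and Abcc5 with -0.59. Besides Spink4, TA was highest in Fzd5 by 0.67, in AY036118 by 0.47, in AC151971.2 by 0.27 and in Pgap1 by 0.14.

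The KO groups came from other libraries and gave a second reading of the same stages. In KO, 45 of the 76 genes (59.2%) were higher in AE than in ISC and 16 (21.1%) lower, with a median difference of 1.65. All 49 genes higher in WT were also higher in KO in sign, 44 of them past the limit, and all 13 genes lower in WT were past it in KO as well. The 5 that did not reach it in KO were Clca4b, Gsta3, Hist1h1c, Nudt4 and Slc25a20. Across the 76 genes Pearson's r between the WT and KO differences was 0.92, as a description, since genes are not replicates and were listed for a change between the 2 genotypes. The SD over genes of KO minus WT of this difference was 1.20. It was 0.93 over the 44 genes listed for colonocytes (CO) alone. Their CO listing used none of the libraries compared here, but their not being called in ISC, TA or AE did. Genes with a called KO change in these cells are thus left out, which can make this spread smaller. A difference of 1 is therefore about as large as the spread between the 2 readings, which also holds any effect of the deletion.

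The 44 genes listed in CO alone were higher in WT AE in 36, lower in 3 and within the limit in 5, with a median of 2.97. The 32 genes listed in ISC, TA or AE were higher in 13, lower in 10 and within in 9, with a median of 0.35. Ascl2, Slc6a19 and Nt5e are among the first 44, and Pxdn, Lyz1, Itln1 and Ifit1 among the other 32, whose WT values took part in their selection. In 36 of the 44 genes the KO difference was lower than that in WT, with a median KO minus WT of -0.51. Among the other 32 genes the KO difference was lower in 13 only, with a median KO minus WT of 0.40. Over all 76 members the KO difference was lower in 49, with a median KO minus WT of -0.35. The KO and WT means of these 44 genes were closer in AE, with a median absolute difference of 0.18, than in ISC, with 0.43. These genes were not called changed in ISC, TA or AE, so their selection favoured small gaps.

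Nt5e was higher in AE by 7.61 in WT and by 6.27 in KO, Slc6a19 by 6.49 and 4.75, and Ascl2 differed by -6.23 and -5.83. Ifit1 was higher by 6.35 in WT and 3.57 in KO, and Rsad2 by 5.90 and 2.46. Both had KO values above those of WT in ISC, at 1.00 for Ifit1 and 0.35 for Rsad2, and below them in AE, at 4.57 and 2.80. Of the 14 genes within the limit in WT, 4 passed it in KO. The AE minus ISC difference of Cd244 was 0.62 in WT and -4.41 in KO, with a KO ISC value of 2.97. Cd74 was -0.88 in WT and -2.70 in KO, AC151971.2 was 0.98 and 1.59, and Bambi was 0.87 in WT but -1.17 in KO. Cd244, Bambi and AC151971.2 were listed for small intestinal cells, so these differences between genotypes were part of their selection.

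**Figure D4:**
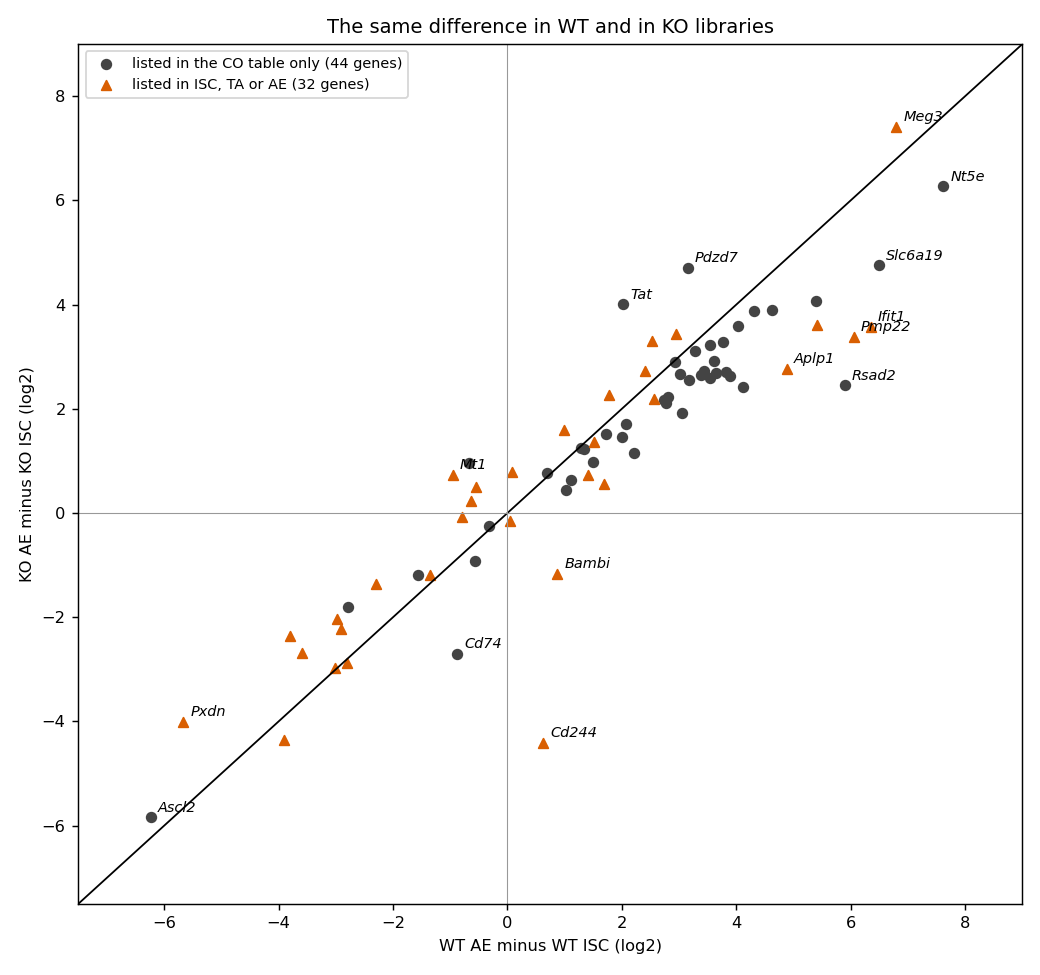
AE minus ISC in WT (x axis) against the same difference in KO (y axis), as log2 differences of the authors' group means, for 44 genes listed in the CO table only (circles) and 32 listed in ISC, TA or AE (triangles). The diagonal marks equal differences; most increases lie below it, and Cd244 (0.62 in WT and -4.41 in KO) lies farthest from it.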

How the data were processed

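mRNA was sequenced as 50 bp single reads after poly(A) selection, with 15 PCR cycles from 10 ng of RNA per the labels, where the study's methods give a range with 10 ng as its upper end. Per the submitters' processing notes and the study's methods, the authors trimmed reads with Trim Galore 0.4.4 and aligned them to GRCm38 with HISAT2 2.1.0. They kept uniquely mapped reads, counted them over exons of merged isoforms in SeqMonk, and ran DESeq2 for KO against WT per cell type. The deposited tables list genes under an FDR of 0.1. Their values are log2 reads normalised to total reads, averaged by the authors over the 3 libraries of a group. The order of averaging and log transformation is not given in the sources used here. The deposited tables also hold the authors' FDR, an adjusted p-value, which was not used beyond membership of a table. A gene in several tables had the same values in each.

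Differences were subtracted between group means with Python 3.11.15, pandas 2.3.3 and numpy 2.4.6, and the counting steps were tested on simulated data. Exon length, overlaps and shared 50-base stretches were taken from GENCODE M21. Of the members, 71 matched it by position and 5 by symbol. For 7 members the feature column named another gene, and the gene symbol was used. Genes named were the 10 largest increases and decreases, the 5 differences nearest 0, the 5 genes with TA farthest above and the 5 farthest below both ends, all list members, genes at the lowest value of a column and Smarcad1. Others are marked as chosen after their values were seen. The values of 1 member, included in the counts, are not reported here. The members and lists were chosen with earlier results of these data known. Alternatives were a pseudocount of 1, only features with a gene description, filters of none and of 2, limits of 0.5 and 2, genes listed in CO only, and the KO groups.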

Additional observations from a re-analysis of the deposited data

How the results depend on the processing

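No paired analysis was possible because the tables hold 1 mean per group and no value per library, so neither the shared replicate numbers nor the omission of a library could be used. Another scaling could not be run, since only listed genes have values. In AE against ISC, a limit of 0.5 gave 20 genes lower and 3 within, and a limit of 2 gave 27 within. The median difference was 1.70 with a pseudocount of 1, 1.75 with no filter, 2.97 in genes listed in CO only (3 lower and 5 within) and 1.65 in KO. In TA against ISC, 31 genes were higher and 17 lower at a limit of 0.5, and 3 higher and 2 lower at a limit of 2. There 11 were higher with a pseudocount of 1, 7 were lower among genes listed in CO only, and KO gave 8 higher genes and a median of 0.11. In AE against TA, 8 were lower at a limit of 2, and 2 were lower in genes listed in CO only, with a median of 2.45. The median was 1.25 with a pseudocount of 1, 1.54 with a filter of 2 and 1.48 in KO. Of 74 values over all alternatives, 51, with all 10 for features with a gene description among them, moved by less than 1.5-fold (counts) or 0.1 (medians), and no median changed its sign. With a pseudocount of 1, Tat alone of the 62 genes past the limit fell under it. Tat is named after its values were seen.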

Other observations

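The 6 genes outside the filter had low values in all 3 WT groups. Mal, a proteolipid of apical membranes, was at -3.67 in ISC, -3.73 in TA and -1.31 in AE. Tlr4, the receptor for bacterial lipopolysaccharide, was at -2.42, -4.57 and -4.25. Pcdh17, a protocadherin, was at -4.45, -2.92 and -4.40. Abca12, Khdc1a and Mctp1 were at the lowest value of the WT AE column, -5.17, and Abca12 was also at the lowest of the WT TA column, -5.40. Their levels in ISC were -4.23, -4.53 and -4.61.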
